A study of Mus musculus with 13 samples.

Results

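The deposited small RNA table holds 18385 distinct read sequences, and 919 of them carry the class label pre_miRNA, the precursor class of microRNAs. These 919 sequences were taken by that label alone and are described here over all 9 small RNA libraries, by the record each was assigned to, its length and the mature arm it contains. They lie on 10 long and 178 short records, all on the listed strand, and are 16 to 55 bases long. The libraries come from mouse HOXB8 cells, a conditionally immortalised progenitor line of the myeloid lineage, in the differentiated and the undifferentiated state, and from primary bone marrow neutrophils (PMN) of wild-type mice. Small RNA was sequenced after capture on wheat germ agglutinin beads (WGA), after streptavidin capture of biotin attached to azide-labelled glycans (biotin), after that capture followed by PNGase F, an enzyme that cuts N-glycans from asparagine (biotin and PNGase), or as gel-purified input below 300 nt.

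Differentiated cells gave a WGA, a biotin and PNGase, a biotin and an input library. Undifferentiated cells gave a WGA, a biotin and an input library, and neutrophils a WGA and an input library. Undifferentiated cells were kept in 1 µM β-estradiol and 100 ng/ml stem cell factor, and the medium of differentiated cells lacked the estradiol. HOXB8 cells were labelled for 36 h with 100 µM Ac4ManNAz, a sugar that puts an azide on sialic acid, together with 10 µM Gal and 100 µM GalNAc, and their inputs carry the same labelling. The protocol gives a gel step for the inputs only, so the capture and that size selection cannot be told apart in any comparison with input. Every group is 1 library, so there is no replicate check within a kind of cell. The intervals below are exact 95% intervals that cover counting error only. Library sizes, recovered from the values, ran from 3110323 reads in the neutrophil input to 9922659 in the neutrophil WGA library, so 1 read is worth 0.101 to 0.322 RPM, the level on which all values are given, scaled to the whole library. The table itself holds 39.3% (undifferentiated input) to 96.7% (differentiated WGA) of a library's reads.

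MicroRNAs are cut from hairpin precursors. Drosha frees the hairpin from the primary transcript, Dicer removes its loop, and a mature arm of about the length of a small RNA read is loaded into an Argonaute protein. The seed, the bases near the 5′ end of the arm, pairs with target messages, so arms that share a seed form a family. Glycosylated small RNAs on the cell surface have been described for several classes of non-coding RNA, and WGA binds sialic acid and N-acetylglucosamine.

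The sequences fell into 3 kinds. A first kind is made of 642 sequences on 10 long records, whose listed positions run to between 9922 and 531742, far past the size of a hairpin. A second kind holds 234 sequences on 147 short records that share a run of at least 15 bases with a RefSeq mature arm, over 90 arm names. The remaining 43 sequences lie on 33 short records and match no such arm. All but 1 of the 178 short records end within 200 bases. Because the names of the long records are database numbers with no gene annotation in the files, only 2 of them are named.

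The arms on which the results below turn are shown as RefSeq gives them (GRCm38.p6, 5′ to 3′), with the seed, bases 2 to 8, in capitals, because families that share a seed are compared.
let-7f-5p: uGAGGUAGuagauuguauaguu
let-7b-5p: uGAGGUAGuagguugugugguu
miR-26b-5p: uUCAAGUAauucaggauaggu
miR-223-3p: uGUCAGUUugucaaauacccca
miR-21a-5p: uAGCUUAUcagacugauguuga
miR-25-3p: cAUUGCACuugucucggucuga
miR-92a-3p: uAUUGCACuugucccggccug
miR-93-5p: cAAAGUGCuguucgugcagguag
miR-17-5p: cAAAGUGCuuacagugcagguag
miR-181a-5p: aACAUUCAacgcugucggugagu
miR-22-3p: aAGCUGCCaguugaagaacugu
The let-7 arms share the seed GAGGUAG, miR-25 and miR-92a share AUUGCAC, and miR-93 and miR-17 share AAAGUGC. Arms of single genes lie at chr1:74394324-74394344 on the plus strand (Mir26b), chrX:96242884-96242905 on the plus strand (Mir223) and chr11:86584120-86584141 on the minus strand (Mir21a). Mir25, with its arm at chr5:138165332-138165353, and Mir93, with its arm at chr5:138165574-138165596, both on the minus strand, are neighbours in an intron of Mcm7. The arm miR-181a-5p is encoded at 2 places, at chr1:137966468-137966490 and chr2:38852741-38852763, both on the plus strand.

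Reads of the long records look different. The highest of them, with the last 8 bases in capitals, are shown because many distinct reads share these ends.
HOXB8 input, highest: attcccttGGTCAGTC
HOXB8 input, next: tctcactgGTGTGAGG
PMN input, highest: ctctgcctcCCAAGTGC
PMN WGA, highest: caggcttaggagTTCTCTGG
PMN WGA, next: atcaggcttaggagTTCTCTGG
GTGTGAGG closes 92 of the 642 long-record sequences (14.3%) and 1.03% of the 17466 sequences of all other classes. GGTCAGTC closes 41 of them, against 0.0344% of the other classes, and TTCTCTGG closes 33, against 0.166%. Together 10 such ends, each held by 14 or more sequences, close 279 of the 642. The sequences were grouped by position and by RefSeq match, never by these ends. The ends, though, were picked as the most frequent among the long-record sequences, so their higher share there follows in part from that choice. Reads that share an end also differ in length, from 16 to 55 bases for GTGTGAGG.

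Summed over the class, the pre_miRNA level was close to or below the input in every capture. In differentiated cells it was 10586 RPM after WGA, 9123 RPM after biotin and PNGase and 8944 RPM after biotin, against 10638 RPM in the input. Undifferentiated cells gave 8699 RPM after WGA and 4647 RPM after biotin, against 18307 RPM in the input. Neutrophils gave 6577 RPM after WGA, against 21587 RPM in the input. The log2 ratio of WGA to input was -0.01 (-0.02 to 0.01), -1.07 (-1.09 to -1.06) and -1.71 (-1.73 to -1.70) in these kinds of cell. An exact two-sided sign-flip test over the 3 ratios gave p = 0.25, which is the smallest it can give.

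These sums add up parts that went in opposite directions. The long records held 4340 RPM after WGA in differentiated cells against 7070 RPM in their input, and 5203 RPM after WGA in undifferentiated cells against 17464 RPM in their input. In neutrophils they held 5199 RPM after WGA against 1250 RPM in the input. So the long records were 1.63-fold and 3.36-fold lower after WGA in the HOXB8 states and 4.16-fold higher in neutrophils. Mature arms held 4180 RPM after WGA in differentiated cells against 3121 RPM in the input, 2208 RPM against 544 RPM in undifferentiated cells, and 93.2 RPM against 19610 RPM in neutrophils. They were thus 1.34-fold and 4.06-fold higher after WGA in HOXB8 cells and 210-fold lower in neutrophils. Taken as a share of the table instead of the library, the arms in differentiated cells were at a log2 ratio of -0.04, so that direction depends on the denominator, while the undifferentiated value stayed above 0, at 0.82. The remaining short records were higher after WGA in all 3 kinds of cell, at 2066 against 447 RPM, 1288 against 300 RPM and 1285 against 727 RPM. Of the 1285 RPM in neutrophil WGA, 1255 RPM came from a single 19-base read described with these records below, and the sequences of 20 or more bases were lower there, at a log2 ratio of -5.85. The exact sign-flip test gave p = 1.00 for the long records, 1.00 for the arms and 0.25 for the remaining short records. Here and below, fewer cells of a type and less RNA per cell cannot be told apart.

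**Figure D1:**
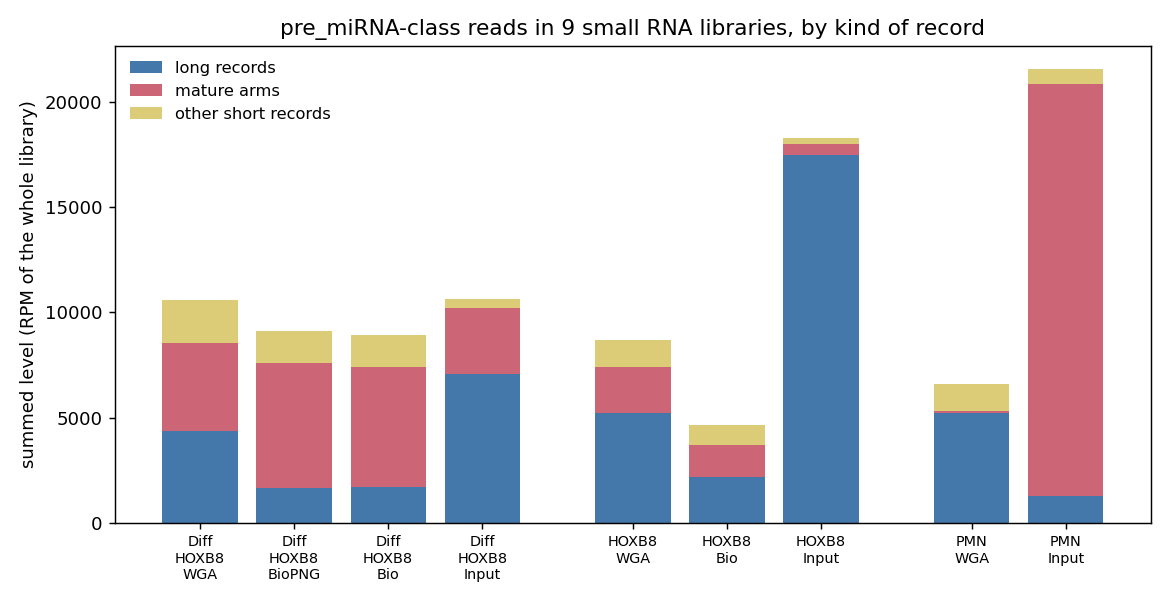
Summed level of pre_miRNA-class reads in RPM of the whole library (vertical axis) in each of the 9 libraries, stacked by kind of record. Mature arms fill most of the neutrophil input (19610 of 21587 RPM) and 93.2 RPM of the neutrophil WGA library, while long records fill most of the undifferentiated input (17464 of 18307 RPM).

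**Figure D2:**
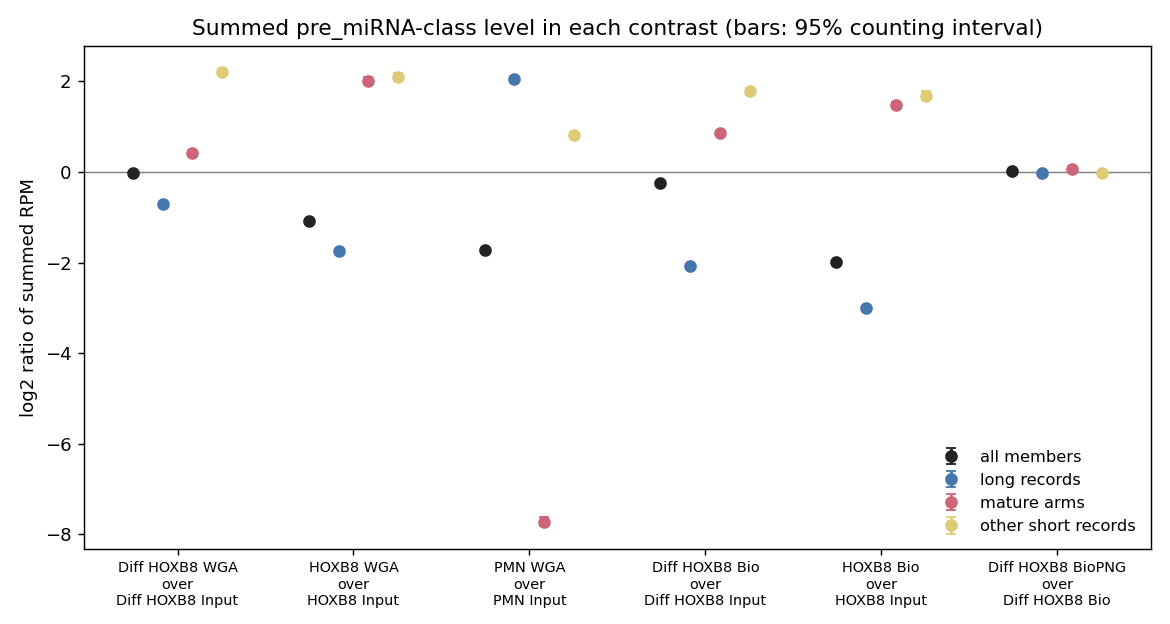
Log2 ratio of the summed RPM (vertical axis) in the 6 comparisons, for all pre_miRNA-class sequences and the 3 kinds of record, each 1 library against 1 library, with exact 95% counting intervals that are mostly smaller than the points. Long records and mature arms lie on opposite sides of 0 in each comparison with an input, and within 0.06 of 0 for PNGase.

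After biotin capture long records were below input and arms above it in both HOXB8 states. The long records were at 1677 RPM after biotin in differentiated cells against 7070 RPM in the input, and at 2173 RPM against 17464 RPM in undifferentiated cells. The arms were at 5722 RPM after biotin against 3121 RPM in the input of differentiated cells and at 1511 RPM against 544 RPM in undifferentiated cells. As a log2 ratio the arms were 0.87 (0.85 to 0.90) and 1.47 (1.41 to 1.54) above input. As shares of the table they were at 0.46 and 0.25. The WGA and biotin comparisons share their inputs, so these values are not independent of those after WGA.

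Counted by record, with a call at 4-fold or more and at least 20 reads in the 2 libraries together, 65 of 106 pre_miRNA records were higher after WGA in undifferentiated cells and 7 lower, where 36.0% and 28.0% of all records of the table were called. In neutrophils 120 of 139 were lower after WGA and 10 higher, against 51.2% and 19.8% of all records. In differentiated cells 41 of 139 were higher and 46 lower, against 28.0% and 36.9%, so the shares of 29.5% and 33.1% were near those of the table. After biotin, 62 of 155 were higher and 21 lower in differentiated cells, against 31.2% and 31.9% of all records, and 56 of 104 were higher and 16 lower in undifferentiated cells, against 30.4% and 33.1%. The median log2 ratio over the records was -0.13, 2.89 and -6.97 after WGA in differentiated cells, undifferentiated cells and neutrophils, beside -0.47, 0.34 and -2.31 over all records.

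Within the long records the direction was uniform after WGA in undifferentiated cells and in neutrophils, and mixed in differentiated cells. All 9 long records that could be compared in undifferentiated cells were lower after WGA, with log2 ratios from -2.77 to -0.97, where 46.7% of all records of the table were lower by any amount. All 9 in neutrophils were higher, from 0.76 to 2.73, against 37.7% of all records. In differentiated cells 8 of 10 were lower, against 53.7%, and the ratios ran from -1.12 to 5.69. The upper end is a record with 1 sequence, at 13.6 RPM after WGA against 0.263 RPM (1 read) in the input. The record with the highest mean level, URS000066E540, held 1288 RPM after WGA, 478 RPM after biotin and PNGase and 431 RPM after biotin in differentiated cells, against 2566 RPM in the input. It held 1600 RPM after WGA and 728 RPM after biotin in undifferentiated cells, against 6363 RPM in the input, and 1936 RPM after WGA in neutrophils, against 409 RPM in the input. URS000068B1D5 came next, with 1106, 440 and 399 RPM in the differentiated captures in the same order against 1304 RPM in the input, 1230 RPM after WGA and 512 RPM after biotin against 3276 RPM in the undifferentiated input, and 1197 RPM after WGA against 332 RPM in the neutrophil input. Both were highest in the undifferentiated input and lowest in the neutrophil input.

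The single reads of these records did not all follow the sum. The 20-base read that ends in TTCTCTGG was at 192 RPM in neutrophil WGA against 2.89 RPM in the neutrophil input, a log2 ratio of 6.05 (5.12 to 7.18). In undifferentiated cells it was at 11.4 RPM after WGA and 14.1 RPM after biotin against 81.4 RPM in the input. All reads with this end made up 24.7% of the long-record level in neutrophil WGA and 2.31% in the neutrophil input. The 17-base read that ends in CCAAGTGC went the other way in neutrophils, with 34.6 RPM after WGA against 145 RPM in the input, and was at 3.62 RPM after WGA against 548 RPM in the undifferentiated input. Both reads lie on URS000066E540, so this record holds reads on either side of the neutrophil input. The next-highest long-record read of the neutrophil input, not shown above, is a 17-base read of URS000068B1D5 that ends in CGGCACCA. It was at 113 RPM in that input and had no read in neutrophil WGA. Over single sequences with at least 20 reads in the 2 libraries, 318 of 348 long-record sequences were higher in neutrophil WGA, against 55.3% of all sequences of the table. In undifferentiated WGA 367 of 480 were lower, against 31.2% of all sequences. Differentiated WGA was mixed, with 172 higher and 231 lower of 403, where 42.7% of all sequences were lower.

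The same letters recur elsewhere in the table. Of the 642 long-record sequences, 267 shared a run of 15 bases with a sequence of the miRNA class, 239 with the Genome class, 239 with the antisense class, 200 with the precursor class and 189 with the sRNA class. Fewer shared one with classes of structural RNA, 45 with tRNA, 30 with SRP RNA, 20 with snRNA and 9 with rRNA. A further 208 (32.4%) shared no such run with any other class. Only 1 long-record sequence lay inside a RefSeq hairpin, that of Mir1954.

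Mature arms were read in several forms. Of the 234 arm sequences, 44 were the exact RefSeq arm, 78 lay inside it, 64 contained it and 48 were shifted or carried a mismatch, and 164 lay wholly within a RefSeq hairpin. Reads of the exact arm made up 41.7% to 51.1% of arm reads in 8 libraries and 15.1% in neutrophil WGA. The number of the 90 arms with at least 1 read was 59, 74 and 77 in the differentiated WGA, biotin and PNGase, and biotin libraries and 79 in their input. It was 61 and 69 in the undifferentiated WGA and biotin libraries and 69 in their input. Neutrophil WGA, the deepest library, had 28, and the neutrophil input 85. Over the whole table neutrophil WGA also had the fewest sequences with a read, 4966 of 18385. The neutrophil input had 8481 and the HOXB8 libraries 8298 to 12120, so a low count in neutrophil WGA was not particular to arms.

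**Figure D3:**
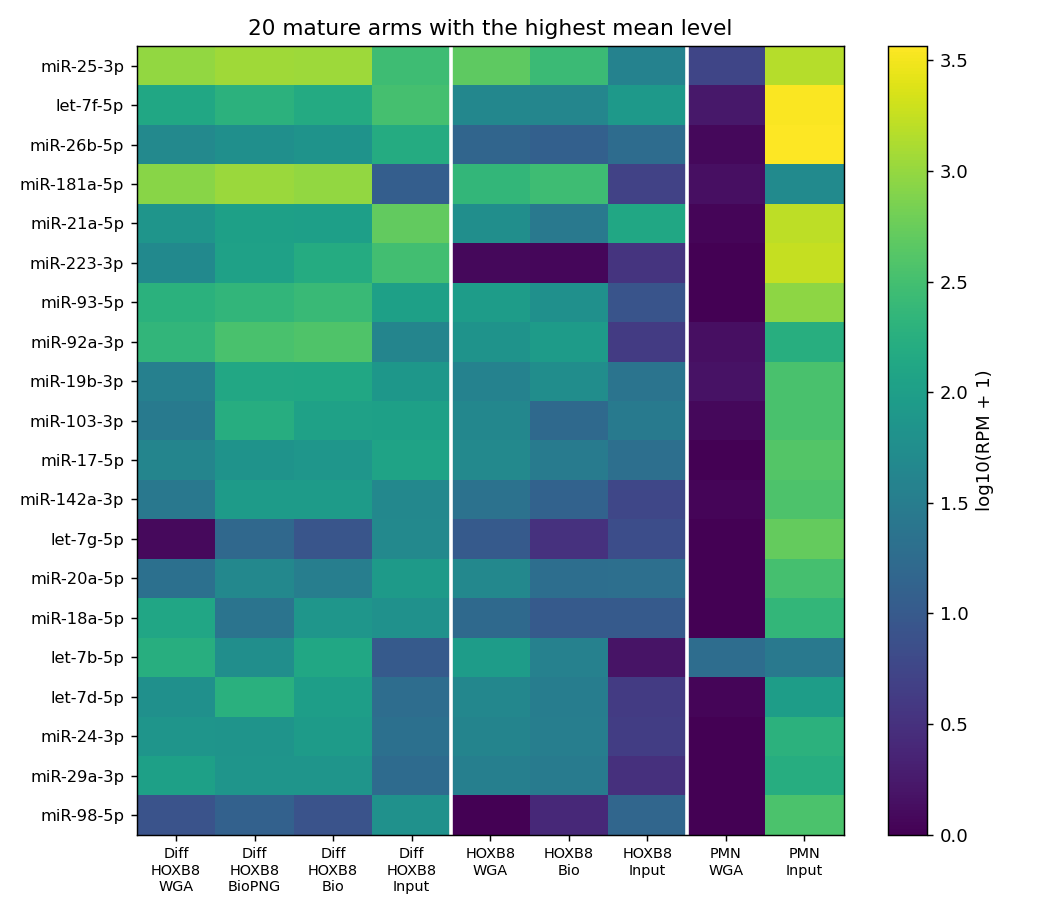
Level of the 20 mature arms with the highest mean RPM among the arms kept for the figure, as log10(RPM + 1), in the 9 libraries. Arms that matched several names, miR-378c, miR-3535, miR-6240 and miR-6538 were left out before ranking. Of these, miR-378c had a mean of 107 RPM, high enough to be drawn. Columns run from captures to input within each kind of cell, and the neutrophil WGA column is dark for all but a few arms while its input is the brightest for most.

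Among the arms of myeloid and blood cells, miR-223-3p, which rises in granulocyte development, was set against the cell labels. It was at 48.4 RPM after WGA, 108 RPM after biotin and PNGase and 156 RPM after biotin in differentiated cells, against 309 RPM in the input. In undifferentiated cells it was at 0.181 RPM after WGA and 0.157 RPM after biotin, against 2.4 RPM in the input, and in neutrophils it had no read after WGA against 1808 RPM in the input. In the inputs it was highest in neutrophils, lower in differentiated and lowest in undifferentiated cells. The summed arms had the same order, so the order is not particular to miR-223-3p. miR-21a-5p, an arm raised in many activated myeloid cells, was at 71.0, 105 and 103 RPM in the differentiated WGA, biotin and PNGase, and biotin libraries against 505 RPM in the input. It was at 57.4 RPM after WGA and 26.3 RPM after biotin against 131 RPM in the undifferentiated input, and at 0.101 RPM after WGA against 1631 RPM in the neutrophil input. Both arms were below input in every capture. For miR-223-3p in undifferentiated cells this rests on 1 read after WGA and 1 read after biotin, against 9 reads in the input. miR-142a-3p, made in blood cells, was at 25.4, 90.7 and 89.2 RPM in the differentiated captures against 44.6 RPM in the input, at 21.0 RPM after WGA and 12.1 RPM after biotin against 4.81 RPM in the undifferentiated input, and at 0.101 RPM after WGA against 372 RPM in the neutrophil input.

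Of the list of 9 myeloid and blood microRNA names, 8 were found, as 11 arms. Counting arms with at least 20 reads in the 2 libraries, 4 were 4-fold or more higher after WGA and 4 lower of 11 in differentiated cells, 4 higher and 0 lower of 6 in undifferentiated cells, and 0 higher and 8 lower of 8 in neutrophils. Their median log2 ratios were -0.69, 2.81 and -10.12. Over all arms 22 were higher and 21 lower of 71, 39 higher and 5 lower of 59, and 2 higher and 58 lower of 66, with medians of 0.69, 2.94 and -7.99. The median of the list was below that of all arms in differentiated cells and neutrophils. In undifferentiated cells it was close to that of all arms, at 2.81 on 6 arms beside 2.94. None of the 10 names that mark lymphocytes, erythroid cells, stroma, muscle, liver or neurons was found in the class. This covers only the reads that the authors placed in this class.

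The let-7 family, which restrains growth programmes and was the highest family in the neutrophil input, split by member. Summed over its 24 sequences it was at 407, 551 and 489 RPM in the differentiated WGA, biotin and PNGase, and biotin libraries against 528 RPM in the input. It was at 226 RPM after WGA and 136 RPM after biotin against 116 RPM in the undifferentiated input, and at 35.3 RPM after WGA against 5096 RPM in the neutrophil input. let-7f-5p was at 134, 194 and 150 RPM in the differentiated captures against 323 RPM in the input, at 43.3 RPM after WGA and 42.8 RPM after biotin against 80.4 RPM in the undifferentiated input, and at 0.705 RPM after WGA against 3548 RPM in the neutrophil input. let-7b-5p went the other way in HOXB8 cells, at 172, 56.3 and 133 RPM in the differentiated captures against 9.19 RPM in the input, and at 93.4 RPM after WGA and 36.4 RPM after biotin against 0.534 RPM in the undifferentiated input. In neutrophils it was at 17.7 RPM after WGA against 26.7 RPM in the input. After WGA in undifferentiated cells the log2 ratio was 7.45 (5.59 to 10.50) for let-7b-5p, on 2 reads in the input. For let-7f-5p it was -0.89 (-1.14 to -0.64), although the arms share their seed. miR-26b-5p, the highest arm of the neutrophil input with 3673 RPM, was at 0.202 RPM after WGA there. It was at 47.2, 59.2 and 67.2 RPM in the differentiated captures against 153 RPM in the input, and at 13.4 RPM after WGA and 11.3 RPM after biotin against 17.4 RPM in the undifferentiated input.

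Arms of the miR-17-92 family, made from clusters linked to proliferation, summed to 1608, 1998 and 2130 RPM in the differentiated WGA, biotin and PNGase, and biotin libraries against 819 RPM in the input, to 813 RPM after WGA and 547 RPM after biotin against 128 RPM in the undifferentiated input, and to 5.54 RPM after WGA against 4034 RPM in the neutrophil input. miR-25-3p, the highest arm over all libraries, was at 955, 1121 and 1103 RPM in the differentiated WGA, biotin and PNGase, and biotin libraries against 282 RPM in the input. It was at 486 RPM after WGA and 264 RPM after biotin against 37.4 RPM in the undifferentiated input, and at 4.64 RPM after WGA against 1465 RPM in the neutrophil input. miR-92a-3p, with the same seed, was at 223, 342 and 383 RPM against 40.7 RPM, at 66.1 RPM after WGA and 90.6 RPM after biotin against 3.20 RPM, and at 0.403 RPM after WGA against 169 RPM in the neutrophil input. Their family was 3.65-fold higher after WGA and 4.6-fold higher after biotin in differentiated cells, and 13.6-fold and 8.75-fold higher in undifferentiated cells. miR-93-5p was at 189, 218 and 259 RPM against 106 RPM in differentiated cells, and at 93.8 RPM after WGA and 59.7 RPM after biotin against 7.47 RPM in undifferentiated cells. In neutrophils miR-93-5p had no read after WGA against 899 RPM in the input. With the same seed, miR-17-5p was at 40.8, 66.2 and 73.1 RPM in the differentiated captures against 115 RPM in the input, and miR-20a-5p at 19.6, 44.8 and 32.7 RPM against 86.1 RPM. So arms of the AAAGUGC family lay on both sides of input in differentiated cells. Of the 11 names of the miR-17-92 list, 9 were found, as 10 arms, and after WGA 1 was 4-fold or more higher and 2 lower of 9 in differentiated cells, 4 higher and 1 lower of 10 in undifferentiated cells, and 0 higher and 9 lower of 9 in neutrophils. The shares over all arms were those given with the myeloid list, 22 and 21 of 71, 39 and 5 of 59, and 2 and 58 of 66. The median log2 ratio of the list was -1.10, 1.62 and -9.44, beside 0.69, 2.94 and -7.99 over all arms. In differentiated cells the summed level of the list was thus above input while 5 of its 9 arms were below it.

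miR-181a-5p, linked to progenitor and lymphoid differentiation, was at a high level in the HOXB8 captures and a low one in every input. It was at 857, 1071 and 971 RPM in the differentiated WGA, biotin and PNGase, and biotin libraries against 10.8 RPM in the input. It was at 228 RPM after WGA and 289 RPM after biotin against 4.0 RPM in the undifferentiated input, and at 0.403 RPM after WGA against 50.2 RPM in the neutrophil input. The log2 ratio of WGA to input was 6.32 in differentiated cells, 5.83 in undifferentiated cells and -6.96 in neutrophils, and that of biotin to input was 6.5 and 6.17 in the HOXB8 states. The list it belongs to, of progenitor and HOX-linked microRNAs, had only 2 of its 10 names in the class, miR-181a and miR-181b. miR-22-3p was similar at a lower level, with 43.2, 117 and 78.0 RPM in the differentiated captures against 0.788 RPM in the input, and 15 RPM after WGA and 27.1 RPM after biotin against 0.267 RPM in the undifferentiated input. These input values rest on 3 reads and 1 read.

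Most of the captured miR-181a-5p reads lacked the start of the arm. The 4 highest of its reads inside the hairpin are shown as deposited, with the bases of the seed that each still holds in capitals, because they differ in that stretch.
start at base 1: aACATTCAacgctgtcggtgagt
start at base 4: ATTCAacgctgtcggtgagt
start at base 8, shorter: Aacgctgtcggtgagt
start at base 8, longer: Aacgctgtcggtgagtt
The read that starts at base 4 was at 385, 378 and 366 RPM in the differentiated WGA, biotin and PNGase, and biotin libraries against 0.525 RPM (2 reads) in the input, a log2 ratio of 9.52 (7.66 to 12.57) after WGA. It was at 76.6 RPM after WGA and 94.9 RPM after biotin against 1.33 RPM in the undifferentiated input, and at 0.101 RPM after WGA against 3.54 RPM in the neutrophil input. The exact arm was at 350, 360 and 307 RPM against 8.14 RPM in differentiated cells, a log2 ratio of 5.43 (4.92 to 5.99) after WGA, and at 52.5 RPM after WGA and 83.4 RPM after biotin against 1.33 RPM in undifferentiated cells. Reads that start late made up 57.7%, 59.1% and 60.6% of the miR-181a-5p reads within the hairpin in the differentiated captures. Their share in the differentiated input was 4.88% (0.596% to 16.5%, exact Clopper-Pearson) of 41 reads. In undifferentiated cells the share was 64.6% after WGA and 59.7% after biotin, against 42.9% (17.7% to 71.1%) of 14 reads in the input, so no difference was detectable there at this depth. In the neutrophil input it was 9.68% (5.52% to 15.5%) of 155 reads. For all other arms, late starts were 2.20%, 5.73% and 3.39% of reads in the differentiated captures against 3.05% in the input. The split by start was made after the values had been seen.

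**Figure D4:**
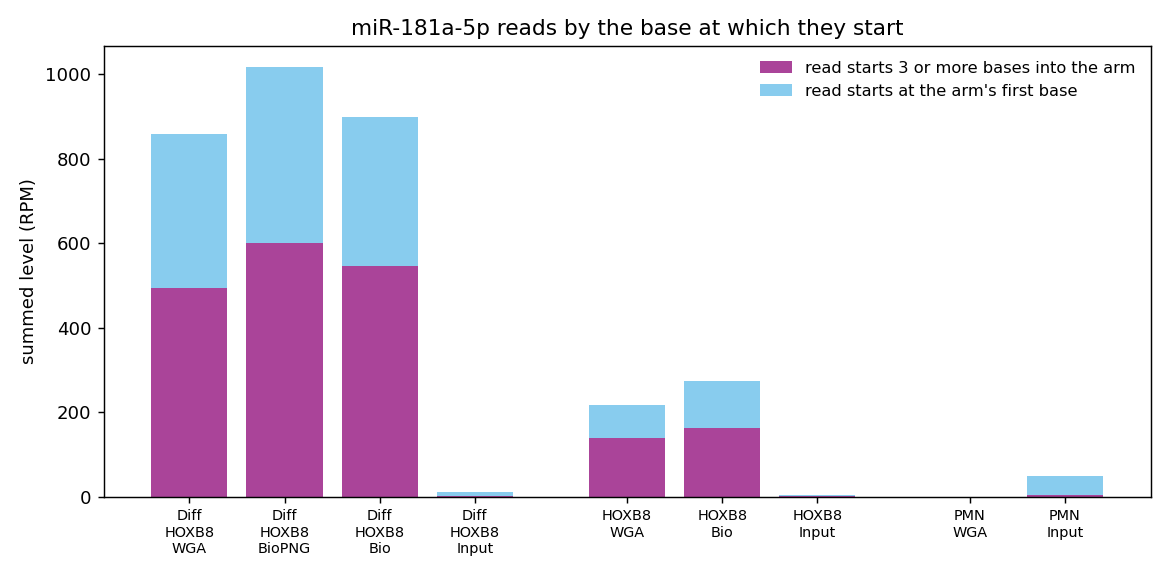
Summed level in RPM (vertical axis) of miR-181a-5p reads that lie within the hairpin, split by where the read starts, in the 9 libraries. In the 5 captures of HOXB8 cells the reads that start late make up 57.7% to 64.6% of the bar, and neither part passes 45.0 RPM in the inputs and in neutrophil WGA.

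What arms in the captures had in common was looked for in base composition. Across arms, the GC content of the RefSeq arm and the log2 ratio had a Spearman rho of 0.28 after WGA and 0.39 after biotin in differentiated cells (71 and 77 arms), 0.44 and 0.48 in undifferentiated cells (59 and 55 arms) and 0.20 in neutrophils (66 arms). For PNGase against biotin alone it was -0.02 (80 arms). In differentiated cells after WGA, the 32 arms above the median GC content had a median log2 ratio of 1.81, and the 39 others -1.19. Arms within a library share that library and its depth and are not replicates, so these values are a description.

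After PNGase F digestion of the biotin capture the class held nearly the same share of the library. RPM is scaled to each library, so these values cannot show whether the amount of captured RNA changed. The sum was 9123 RPM after biotin and PNGase against 8944 RPM after biotin alone, the long records 1668 against 1677 RPM, the arms 5945 against 5722 RPM and the remaining short records 1510 against 1545 RPM. The log2 ratios were 0.03 (0.01 to 0.04), -0.01 (-0.04 to 0.03), 0.06 (0.04 to 0.07) and -0.03 (-0.07 to 0.01). Of 160 records 22 were 4-fold or more higher and 17 lower, beside 12.7% and 11.9% of all records. Of 80 arms, 53 were within 2-fold of biotin alone. Over all 874 records of the table, 19.3% were 2-fold or more higher with PNGase and 18.8% lower. Most records of the table were thus within 2-fold too, although arms and records are different units. Between WGA and biotin in the same cells, 33 of 78 arms were within 2-fold in differentiated cells and 27 of 61 in undifferentiated cells. The share over all records was not computed for WGA against biotin, so these counts cannot be called particular to arms. Single reads still differed, as with the 16-base long-record read that ends in GTGTGAGG, at 78.3 RPM with PNGase against 5.47 RPM without.

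Differentiated cells were then set against undifferentiated ones within each kind of library. In the inputs, arms were at 3121 RPM in differentiated cells against 544 RPM in undifferentiated cells, and long records at 7070 RPM against 17464 RPM. Of 54 arms with at least 20 reads, 52 were higher in the differentiated input, where 55.7% of all records were higher, with a median log2 ratio of 2.57 over the arms. miR-223-3p had the highest ratio, 7.01. After WGA 43 of 69 arms were higher in differentiated cells (median 0.62), against 48.9% of all records, and after biotin 70 of 76 (median 2.10), against 61.2%. The arms counted here can each sum several records, while the shares beside them count single records, so the units differ. The table holds 70.2% of the reads of the differentiated input and 39.3% of those of the undifferentiated input. That share moves with the comparison and its part in it was not tested.

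The table also has a miRNA class, and 101 of its sequences match 49 of the same arms. They add up to 3236, 4386 and 4003 RPM in the differentiated WGA, biotin and PNGase, and biotin libraries against 2948 RPM in the input, to 1883 RPM after WGA and 1415 RPM after biotin against 508 RPM in the undifferentiated input, and to 40.2 RPM after WGA against 17498 RPM in the neutrophil input. None of these sequences is listed in both classes. The reads of an arm are thus divided between classes, and a level given here is not the whole level of that microRNA. The authors also name the table as one of non-miR sequences. Further reads of these arms may therefore lie outside it, and they were not counted here.

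Ends that run past the arm were mostly at the 3′ side. Of the 64 sequences that contain a whole arm, 63 were longer at the 3′ end only, and 32 did not lie in a RefSeq hairpin. In 31 of these 32 the added bases were only A or T. miR-223-3p in the neutrophil input gives an example, with the bases past the RefSeq arm in capitals.
exact arm: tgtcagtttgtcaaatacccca
with T: tgtcagtttgtcaaataccccaT
with TT: tgtcagtttgtcaaataccccaTT
with AT: tgtcagtttgtcaaataccccaAT
These were at 526, 231, 191 and 167 RPM in the neutrophil input, and none of them had a read in neutrophil WGA. In differentiated cells the form with T was at 0.117 RPM after WGA, 5.89 RPM after biotin and PNGase and 5.47 RPM after biotin, against 12.3 RPM in the input. Longer forms made up 15.8%, 16.4% and 17.2% of arm reads in the differentiated captures against 30.7% in the input. They made up 14.6% after WGA and 17.6% after biotin in undifferentiated cells against 33.8% in the input, and 16.2% after WGA in neutrophils against 34.1% in the input.

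The remaining short records were led by a read that occurs inside the RefSeq hairpin of Mir5099 and, whole, inside a sequence of the table's rRNA class.
record URS000075EFF2: TTAGATCGATGTGGTGCTC
tRNA-like read: atcccggacgagcccCCA
Capitals mark the run shared with the rRNA class in the upper read and the terminal CCA, the tail of mature tRNAs, in the lower one. The upper read was at 1582, 971 and 1095 RPM in the differentiated WGA, biotin and PNGase, and biotin libraries against 155 RPM in the input. It was at 906 RPM after WGA and 751 RPM after biotin against 143 RPM in the undifferentiated input, and at 1255 RPM after WGA against 74.3 RPM in the neutrophil input. It was the highest sequence of the class in 5 of the 6 captures, and the log2 ratio of WGA to input was 3.35, 2.66 and 4.08 in differentiated cells, undifferentiated cells and neutrophils. Of the 43 sequences of this kind, 12 shared a 15-base run with the rRNA class and 11 others with the tRNA class, of which 10 end in CCA. The tRNA-like read was at 113, 133 and 185 RPM in the differentiated captures against 10.2 RPM in the input, at 17 RPM after WGA and 32.5 RPM after biotin against 7.21 RPM in the undifferentiated input, and had no read after WGA against 7.39 RPM in the neutrophil input. The 20 sequences that matched neither class held no read in neutrophil WGA against 396 RPM in the input.

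Read length followed the kind of record. In the captures and inputs of HOXB8 cells the median read of a long record had 18 bases and that of an arm 22. In neutrophils the long-record median was 20 bases after WGA against 17 in the input, and the arm median 17 after WGA against 22 in the input. Sequences under 20 bases made up 45.2%, 29.3% and 31.8% of the class in the differentiated captures against 48.8% in the input, 57.6% after WGA and 53.6% after biotin against 61.9% in undifferentiated cells, and 53.7% after WGA against 6.02% (5.84% to 6.21%) in neutrophils. Of the 925 arm reads left in neutrophil WGA, 66.7% (63.6% to 69.7%) were under 20 bases, against 0.795% of the 60994 in the input. Their 2 highest sequences were 17-base reads of let-7b and of let-7a or let-7c. Without these 2 arms the other arms were at 58.9 RPM after WGA against 19563 RPM in the input.

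**Figure D5:**
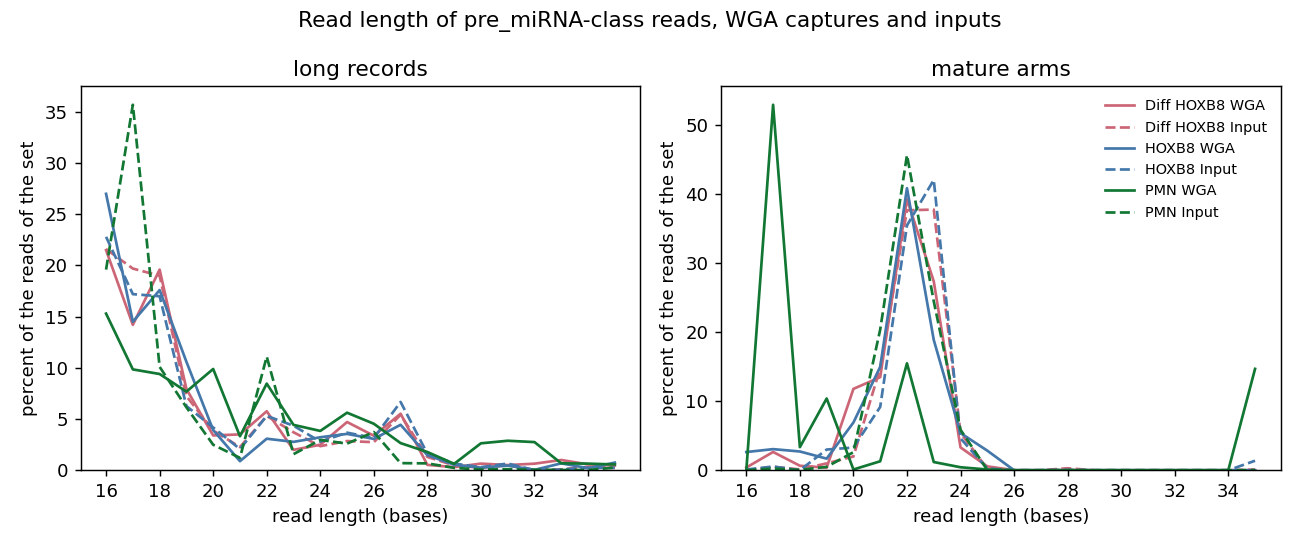
Percent of reads (vertical axis) at each read length in bases (horizontal axis, drawn from 16 to 35) for long records and mature arms, in the WGA (solid) and input (dashed) libraries of the 3 kinds of cell. Arms peak at 22 or 23 bases in every library drawn but neutrophil WGA, which peaks at 17.

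A fit across the table asked which sequences differed between WGA and input in the same way in all 3 kinds of cell. limma on log2(RPM + 1), with the kind of cell as block and Benjamini-Hochberg adjustment at 0.05, tested 877 pre_miRNA sequences and called 1 of them, where 1.99% of all 15874 sequences tested were called. The called sequence was the exact arm of miR-26b-5p, which had no read after WGA in differentiated cells and neutrophils and 0.181 RPM after WGA in undifferentiated cells, against 19.2, 768 and 2.67 RPM in the inputs of these cells in that order. In differentiated cells this read was at 21.2 RPM after biotin and PNGase and 30.6 RPM after biotin, above its level after WGA. It was lower after WGA by 5.19 on the log2(RPM + 1) scale (adjusted p = 0.0422 in limma), and lower in 3 of 3 kinds of cell. A longer read of the same arm, its highest form in the neutrophil input at 2651 RPM, was not called (adjusted p = 0.134 in limma). Summed over its reads, the arm was at a log2 ratio of -0.37 (-0.87 to 0.13) after WGA in undifferentiated cells. The call thus covers 1 form of the arm. At an unadjusted p below 0.05 limma counted 4 pre_miRNA sequences higher and 93 lower, together 11.1% of those tested beside 12.4% of all sequences, a share near that of the table. On the recovered reads edgeR called 0 pre_miRNA sequences and 0 of all sequences, with 11.5% and 10.2% at an unadjusted p below 0.05. DESeq2 called 160 pre_miRNA sequences (18.2%), all lower, beside 14.7% of all sequences. The TMM factors that edgeR used ran from 0.365 to 3.93. The median log2 difference was -0.45 over the pre_miRNA sequences and 0.87 over all sequences tested by limma.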

How the data were processed

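Small RNA from 9 libraries, 1 per group, was sequenced with a TruSeq small RNA kit, per the labels' protocols. The authors deposited a table of RPM, reads scaled to library size, per distinct sequence with a class, record, position and length; mm10 is named in the submitters' processing notes, and the aligner is not given in the sources used here. Whole reads were recovered from the RPM steps (100% of values within 0.01 of a whole read). The other deposited files were not used here.

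Sequences labelled pre_miRNA were matched to RefSeq mature and hairpin sequences (GRCm38.p6) by runs of at least 15 bases. Records listing a position past 1000 were called long. Ratios of 2 libraries carry exact conditional binomial 95% intervals, and shares carry Clopper-Pearson intervals. Both cover counting error only, because the kit adds no molecular identifier and PCR copies cannot be told from separate molecules. A ratio against 0 reads used a floor of 3 reads, and record counts needed 20 reads in the 2 libraries. WGA was tested against input with limma (trend) on log2(RPM + 1) over the whole table, the kind of cell as block, edgeR and DESeq2 on recovered reads as alternatives, and the code was tested on simulated data. Other alternatives were denominators, length limits, distinct sequences and left-out libraries. Members and lists were chosen with earlier results of these data known. Items were named from the 12 records of highest mean level, the 3 highest and 3 lowest record ratios of each comparison with at least 50 reads, the detected list members and the 3 highest sequences of each library. Not all are printed: long and other records without annotation beyond the 3 highest, and arms of ambiguous match, are not named. Other arms, reads and ends, among them the late starts of miR-181a-5p, were chosen after their values were seen.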

Additional observations from a re-analysis of the deposited data

Results flagged for a closer look

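The same comparison, WGA against input, moved in opposite directions in different cells for both long records and mature arms. Long records were at a log2 ratio of -0.70 in differentiated HOXB8 cells and -1.75 in undifferentiated HOXB8 cells, and at 2.06 in neutrophils. Mature arms were at 0.42 in differentiated and 2.02 in undifferentiated HOXB8 cells, and at -7.72 in neutrophils. These are single libraries on each side, so the difference between kinds of cell was not tested. The neutrophils were fresh primary cells with no sugar labelling given in the labels, and the HOXB8 cells were a labelled line. The kind of cell and this handling cannot be told apart.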

How the results depend on the processing

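Ratios are log2 and follow the order differentiated WGA, undifferentiated WGA, neutrophil WGA, differentiated biotin and undifferentiated biotin over input, then PNGase over biotin, leaving out those that moved by less than their counting interval. As shares of the table, a denominator added after seeing the data for the 3 kinds of record, the whole class was at -0.47, -2.28, -1.74, -0.66 and -3.20. On that scale long records were at -1.17 and -2.95 after WGA in HOXB8 cells and -2.49 and -4.23 after biotin. Arms turned to -0.04 after WGA in differentiated cells and were at 0.82 in undifferentiated cells and 0.46 and 0.25 after biotin. Remaining short records were at 1.75, 0.90, 1.37 and 0.46, and miR-17-5p after biotin in undifferentiated cells turned to -0.61.

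With only sequences of 20 or more bases the class was at 0.09, -0.92 and -2.74 after WGA, turned to 0.16 after biotin in differentiated cells, and was at -1.70 and 0.08 in the last comparisons. Long records were then at -0.53, -2.03 and 3.08 after WGA, -3.18 after biotin in undifferentiated cells and 0.36 with PNGase. Arms were at 0.39, 1.92 and -9.29 after WGA and 0.82 after biotin in differentiated cells. Remaining short records were at 1.45 and 1.85, turned to -5.85 in neutrophils, and were at 0.88, 0.46 and 0.52. Record URS000075EFF2 turned to -0.32 in neutrophils and 0.29 with PNGase.

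Without the 3 highest records the class was at -0.79 and -3.25 after WGA in undifferentiated cells and neutrophils, turned to 0.09 after biotin in differentiated cells and was at -1.68 in undifferentiated cells. Counting distinct sequences gave -0.45, -0.66, a turn to 0.43 in neutrophils, -0.67, -0.72 and a turn to -0.04. Shares under 20 bases counted over distinct sequences, and without the 3 highest records, were 37.8% and 23.1% in differentiated WGA, 28.3% and 15.6% with PNGase, 32.7% and 16.5% after biotin and 40.6% and 34.3% in the input. They were 39.3% and 40.2% in undifferentiated WGA, 35.7% and 30.5% after biotin, 42.9% and 54.1% in the input, 40.3% and 41.5% in neutrophil WGA and 34.1% and 3.28% in the neutrophil input.

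At 100 reads or more, 8 of 88 records were lower in differentiated WGA (26.7% of all records of the table), 33 of 54 higher and 2 lower in undifferentiated WGA (31.0% and 26.0%), and 74 of 90 lower in neutrophils (44.1%). After biotin 9 of 108 were lower in differentiated cells (27.8%) and 24 of 43 higher and 10 lower in undifferentiated cells (22.1% and 38.2%), and with PNGase 8 of 125 were higher and 8 lower (5.09% and 6.48%). At 2-fold, 15 of 106 were lower in undifferentiated WGA (36.5%), 40 of 155 lower after biotin in differentiated cells (41%) and 34 of 160 lower with PNGase (18.8%). Scaled to the table, 18 of 106 were lower in undifferentiated WGA (38.6%) and 30 of 104 higher after biotin (16.5%). limma called 8 pre_miRNA sequences of 877 at a pseudocount of 0.1 (2.95% of all sequences), 0 at 10 (0.674%; 43 at an unadjusted p below 0.05), 0 of 919 with no filter (0.538%; 53) and 9 of 224 at a mean of 10 RPM or more (13.2%). With 1 kind of cell left out limma called 11 to 21, where 1.63% to 4.28% of all sequences were called. edgeR called 0 (0%; 101) and DESeq2 160 (14.7%). Of 198 values of single arms and records under these alternatives, 135 stayed within the counting interval, 60 moved in size and 3 turned. The causes were not tested.

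The limma fit pairs each WGA library with the input of the same cells, through the kind of cell as block, and called 1 pre_miRNA sequence. Without that block it called 0 (0.964% of all sequences; 95 at an unadjusted p below 0.05). By replicate number, no paired analysis was possible because the labels of the small RNA libraries give none. Depth limits arms near 0: a count of 0 allows up to 0.302 RPM in the deepest library and 0.965 RPM in the shallowest. Leaving out rows that list several records changed nothing, because there were 0 of them.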

Other observations

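Records of several other arms stood at the ends of a comparison. let-7g-5p, a let-7 member, was on a record at 0.117 RPM after WGA against 13.9 RPM in the differentiated input, a log2 ratio of -6.89. In the same comparison miR-301a-3p had no read after WGA against 31.0 RPM in the input. A record of miR-34a-5p, an arm induced by p53, had none against 25.5 RPM. With the floor of 3 reads in the WGA library these are log2 ratios of -6.46 and -6.18 or lower. That record of miR-34a-5p was also below input after biotin in differentiated cells, at 2.36 RPM against 25.5 RPM. Summed over its records, miR-34a-5p was at 6.21 RPM after biotin against 40.4 RPM in that input. A record of miR-140-3p was at 0.746 RPM after biotin against 13.9 RPM in the differentiated input. Summed over its records, miR-140-3p went the other way, at 59.4 RPM after biotin against 25.7 RPM in that input. On the other side, miR-484 was at 31.9 RPM after WGA against 0.267 RPM, 1 read, in the undifferentiated input. With PNGase a record of let-7d-3p was at 20.5 RPM against no read after biotin alone, and a record of miR-222-3p had no read against 13.8 RPM.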
